A study of Mus musculus with 4 samples.

Results

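The genes described here are 9 homeobox and coactivator genes grouped as upstream regulators of myogenesis: *Six2*, *Six4*, *Six5*, *Eya1*, *Eya2*, *Eya3*, *Eya4*, *Meox2* and *Lbx1*. Whether each acts upstream of the myogenic regulatory factors was not tested here. They were chosen by symbol from the 32285 genes of the feature tables, and all 9 were found. Their transcripts were counted in leg muscle cells of E18.5 mouse fetuses by a droplet method of single-cell RNA sequencing. Barcodes on each captured molecule tell its cell and, as a unique molecular identifier (UMI), the molecule itself. The study asked how loss of *SYISL*, a long non-coding RNA from an intron of *Synpo2* that restrains muscle growth, acts on fetal muscle. It compared 2 libraries from wild-type (WT) fetuses with 2 from knockout (KO) fetuses of heterozygous matings, taken as littermates. The labels call the libraries of a genotype biological replicates, and the number of fetuses in each library is not given in the sources used here. The mothers of both groups were themselves heterozygous for the deletion.

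Six-family proteins are homeodomain transcription factors that bind MEF3 sites in muscle genes. Eya proteins do not bind DNA themselves; they join Six-family partners at those sites as coactivators and also carry a phosphatase domain. In the limb, Lbx1 is needed by muscle precursors as they leave the somites and migrate, and Meox2 is a homeobox factor of limb muscle patterning that is also known from mesenchyme and vessels. Skeletal muscle progenitors carry Pax7, and their differentiating progeny, the myoblasts, carry myogenin (*Myog*).

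The positions are given on GRCm38, the assembly that mm10 names, from the GENCODE vM21 annotation. *Six2* lies on the minus strand at chr17:85684277-85688274, *Six4* on the minus strand at chr12:73099609-73113456 and *Six5* on the plus strand at chr7:19094594-19098549. *Eya1* (chr1:14168954-14310235) and *Eya4* (chr10:23102963-23350786) are on the minus strand, and *Eya2* (chr2:165595032-165771727) and *Eya3* (chr4:132638987-132724765) on the plus strand. *Meox2* (chr12:37108540-37179534) is on the plus strand and *Lbx1* (chr19:45232684-45235812) on the minus strand. *Meox2* overlaps the non-coding *Gm48617* on its own strand, which held 1341 UMIs in the kept cells against 54303 for *Meox2*. *Six5* is preceded by *Dmpk* on the same strand, which held 4944 UMIs against 4064 for *Six5*. Reads of such neighbours could be split between them in the counting.

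RefSeq start sites (GRCm38.p6) were found for 6 of the 9 genes, in 8 windows of 250 bases before the start. The 3 windows below are shown because these members, among those with a window, were highest in different cells: *Six4* in myoblasts (chr12:73113246-73113495, minus strand), *Eya4* in progenitors and cycling cells (chr10:23349891-23350140, minus strand) and *Meox2* in connective tissue cells (chr12:37108290-37108539, plus strand). Each reads 5′ to 3′ towards the gene. Capitals mark the letters of a MEF3 motif (TCAGGTT on either strand) or of an E-box (CANNTG), the motif of the myogenic regulatory factors.
Six4: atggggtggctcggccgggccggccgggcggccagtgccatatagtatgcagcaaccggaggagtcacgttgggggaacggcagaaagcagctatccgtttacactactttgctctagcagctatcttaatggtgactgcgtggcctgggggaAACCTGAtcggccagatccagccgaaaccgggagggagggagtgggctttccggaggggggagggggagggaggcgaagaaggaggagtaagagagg
Eya4: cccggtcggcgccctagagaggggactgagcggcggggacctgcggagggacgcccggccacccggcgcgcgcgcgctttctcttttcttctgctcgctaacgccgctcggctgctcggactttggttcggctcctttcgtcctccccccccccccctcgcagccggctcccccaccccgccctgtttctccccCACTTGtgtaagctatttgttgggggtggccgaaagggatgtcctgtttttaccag
Meox2: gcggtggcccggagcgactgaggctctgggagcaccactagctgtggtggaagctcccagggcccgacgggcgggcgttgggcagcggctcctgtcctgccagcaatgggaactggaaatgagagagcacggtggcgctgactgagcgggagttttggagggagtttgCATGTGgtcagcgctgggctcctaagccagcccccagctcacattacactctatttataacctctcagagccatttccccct

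The MEF3 letters were found in 1 of the 8 member windows, that of *Six4*, with the first base 97 bases before the start and on the opposite strand. Of all 32817 windows of this length, 3.50% held them. An E-box was found in 3 of the 8 member windows against 66.2% of all windows, and the E-box CAGCTG, which overlaps CANNTG, in 0 of the 8 against 13.01%. *Six4* and *Eya4* had 2 windows each, and the one shown is the one with a motif. The other window of each held none of these motifs. The *Eya4* window shown lies wholly, and that of *Six4* partly, within the gene span given above. These matches describe letters only and say nothing of binding.

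The libraries held 41741 cells, of which 36969 were kept (8515 and 8177 from WT, 9816 and 10461 from KO), with medians of 9118 to 11427 UMIs per cell. No feature was named *SYISL*. Transcripts of *Synpo2*, its host gene, were present at 8.51, 9.31, 9.81 and 8.37 counts-per-million (CPM) in myogenic-like cells of WT replicates 1 and 2 and KO replicates 1 and 2, which does not check the deletion. KO replicate 2 stood apart from the other 3 libraries in sex-linked transcripts, with 131038 UMIs of *Xist* against 0 to 5 and Y-linked UMIs in 1.00% of cells against 85.8% to 89.9%. Fold changes with an unadjusted p under 0.05, and that of *Eya4* in myogenic-like cells, are also given without it. Of the 36845 distinct cell barcodes, 124 occurred in more than 1 library.

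Cells were grouped by clustering in which the 9 genes took no part, and clusters were named from marker genes. Myogenic-like cells numbered 6729, fibro-adipogenic progenitor (FAP)-like cells 16896, tenocyte-like cells 4922 and chondrocyte-like cells 1459. Vessel wall (smooth muscle or pericyte)-like cells numbered 1749, glial-like cells 1823, endothelial-like cells 1345, macrophage-like cells 1115 and mast-like cells 286. The 214 neutrophil-like cells, 25 in each KO library, and 431 cells of a cluster without a name were left out of the comparisons. The summed level of 13 myogenic markers was 3233 to 3567 CPM in myogenic-like and 67.8 to 105 CPM in FAP-like cells. Myogenic-like cells divided into 3434 progenitor-like, 1847 cycling-like, 1357 myoblast-like and 91 myotube-like cells. The myotube-like cells numbered 15 to 31 in a library and were not tested. A level is given as CPM, the UMIs of the gene scaled to a common total of UMIs of that class in that library, and libraries are listed as WT replicates 1 and 2, then KO replicates 1 and 2. In a summed class, fewer expressing cells and fewer transcripts per cell cannot be told apart. In the myotube-like cells *Eya4* was at 184.7, 240, 241.5 and 309.4 CPM. *Lbx1* was at 43.5, 50.9, 33.8 and 35.2 CPM there, on 8, 7, 7 and 14 UMIs. *Six4* was at 5.43, 14.5, 4.83 and 15.1 CPM, on 1, 2, 1 and 6 UMIs. Against the myoblast-like values given below, *Lbx1* lay above, *Six4* lay under and *Eya4* overlapped.

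*Six4* was highest in the myoblast-like stage, as the plot of levels by class shows. Its levels there were 49.7, 52.0, 61.3 and 59.2 CPM, against 17.0, 16.7, 14.0 and 19.6 CPM in progenitor-like and 17.2, 20.9, 14.6 and 22.2 CPM in cycling-like cells. The myoblast-like level was thus 2.92 to 4.39 times the progenitor-like level within each library, and its range lay above those of both other stages, which overlapped each other. When the stages were replaced by a gate on UMIs of *Pax7* and *Myog*, the ratio was 2.76 to 3.95. Outside muscle, *Six4* stood at 17.1 to 20.1 CPM in tenocyte-like and 17.1 to 22.8 CPM in chondrocyte-like cells, levels that overlapped those of the cycling-like cells. It stood at 7.68 to 8.68 CPM in FAP-like cells and at 0 to 4.19 CPM in the vascular, glial, macrophage-like and mast-like classes.

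*Six2*, which in the embryo is best known from kidney progenitors and tendon and connective tissue, had the opposite stage order. It was counted at 8.58, 12.3, 11.7 and 9.44 CPM in progenitor-like and 9.62, 10.7, 14.7 and 11.5 CPM in cycling-like cells, and at 3.15, 3.00, 2.82 and 1.67 CPM in myoblast-like cells. The myoblast-like level was 0.177 to 0.367 of the progenitor-like level and rested on 7 to 11 UMIs per library. The highest level of *Six2* was in tenocyte-like cluster 12, led by the tendon genes *Scx* and *Tnmd*, with 16.4, 14.2, 12.4 and 12.9 CPM. This range overlapped that of the cycling-like cells. *Six5*, which lies next to the myotonic dystrophy gene *Dmpk*, was at 12.2 to 13.3 CPM in FAP-like and 12.4 to 17.6 CPM in tenocyte-like cells. It was counted at 5.67 to 7.40 CPM in progenitor-like and 1.91 to 2.82 CPM in myoblast-like cells, so its myoblast-like level was 0.258 to 0.404 of the progenitor-like level. Among these 3 Six-family genes *Six4* alone was higher in myoblast-like than in progenitor-like cells, in 4 of 4 libraries.

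**Figure D1:**
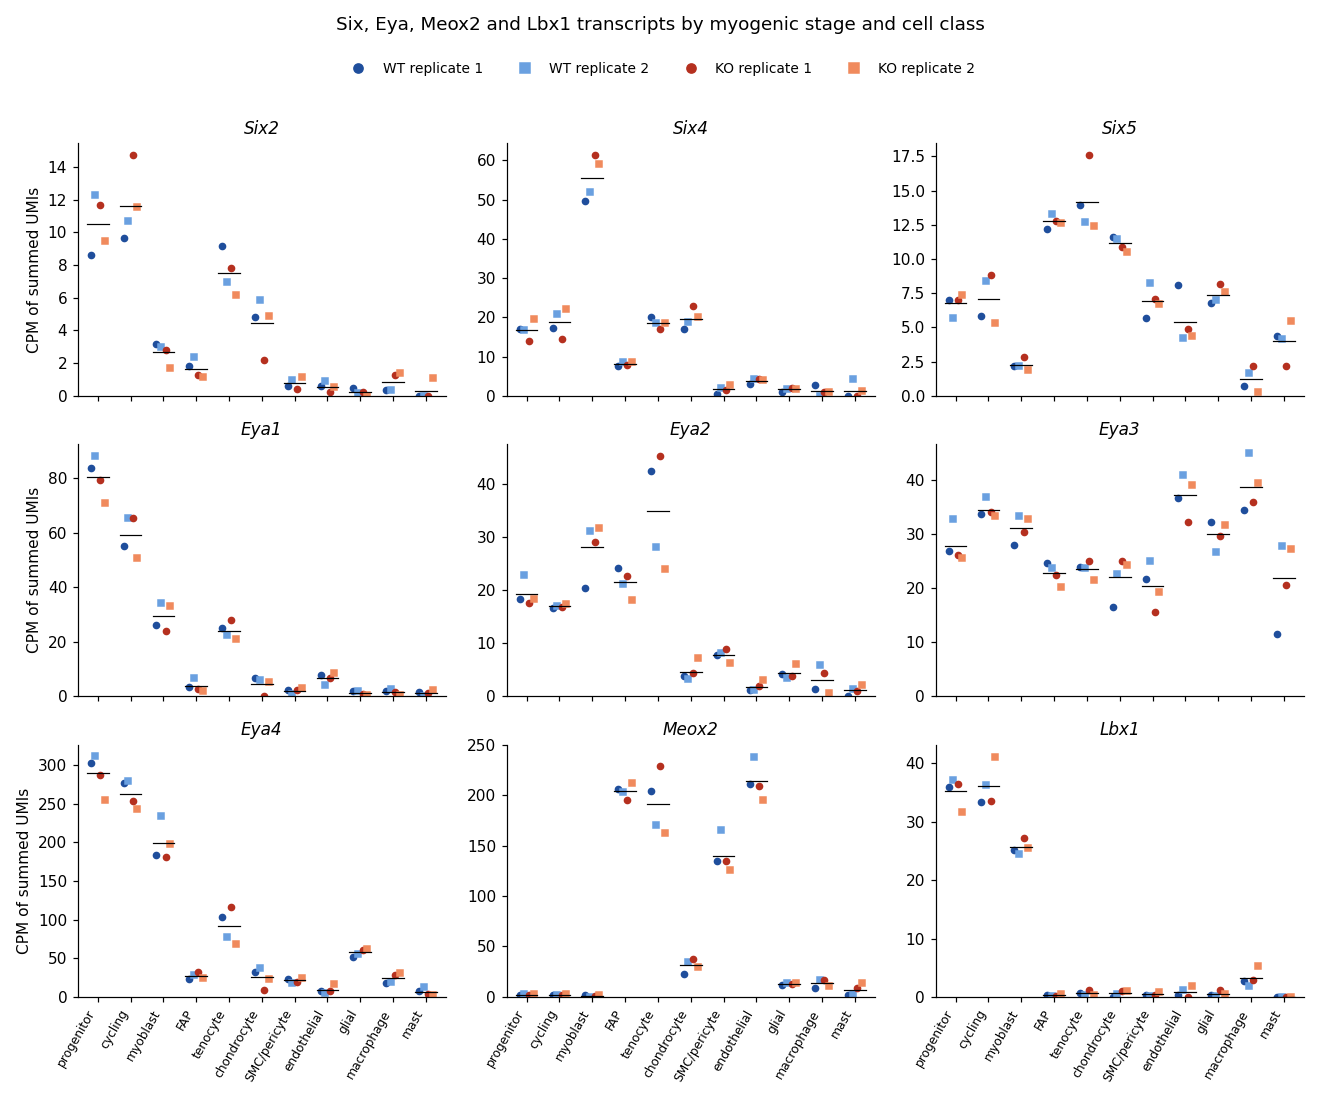
Levels of the 9 genes (CPM of summed UMIs, linear axes that start at 0 and differ between genes) in 3 myogenic stages and 8 other classes. Points are the 4 libraries and bars their mean; *Six4* peaks in myoblast-like cells at 49.7 to 61.3 CPM, *Lbx1* is at 24.5 to 41.2 CPM in the myogenic stages, and *Meox2* is at or under 3.16 CPM there.

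*Eya4* and *Eya1* were the coactivator genes of the progenitor-like stage. *Eya4* was counted at 303, 311, 288 and 255 CPM in progenitor-like cells, at 277, 279, 253 and 243 CPM in cycling-like cells and at 184, 233, 181 and 198 CPM in myoblast-like cells. The first pair of ranges overlapped, while the myoblast-like range lay under both, at 0.608 to 0.777 of the progenitor-like level. *Eya4* was also counted at 51.9 to 62.5 CPM in glial-like cells and at 23.4 to 32.1 CPM in FAP-like cells. *Eya1* was counted at 83.8, 88.1, 79.3 and 71.0 CPM in progenitor-like cells, at 55.0, 65.3, 65.2 and 50.8 CPM in cycling-like cells and at 26.1, 34.0, 24.1 and 32.95 CPM in myoblast-like cells. These 3 ranges lay apart, and the myoblast-like level was 0.304 to 0.464 of the progenitor-like level. In FAP-like cells *Eya1* reached 1.86 to 6.71 CPM.

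*Eya2* did not follow this order. Its levels were 18.3, 22.8, 17.7 and 18.4 CPM in progenitor-like and 20.5, 31.1, 29.0 and 31.8 CPM in myoblast-like cells. The second was higher in 4 of 4 libraries, by 1.12 to 1.73 times, but the ranges overlapped. Its highest level was in tenocyte-like cluster 12, at 80.2, 61.8, 61.7 and 61.5 CPM, apart from the next group, FAP-like cluster 10, at 24.9 to 35.8 CPM. *Eya3* was present in each class, between 11.6 CPM in mast-like and 44.9 CPM in macrophage-like cells. In order of level, its 5 highest groups were macrophage-like, endothelial-like, cycling-like, myoblast-like and glial-like cells, and no neighbours in this order lay apart.

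*Lbx1* and *Meox2* divided the muscle from the connective tissue and vessel cells. *Lbx1* was counted at 35.9, 37.2, 36.5 and 31.6 CPM in progenitor-like, 33.4, 36.3, 33.5 and 41.2 CPM in cycling-like and 25.2, 24.5, 27.2 and 25.6 CPM in myoblast-like cells. In the other classes it was at 0 to 1.92 CPM, except for 1.95 to 5.32 CPM in macrophage-like cells, which rested on 6 to 19 UMIs per library. In mast-like cells it had no UMI. *Meox2* was counted at 206, 203, 195 and 212 CPM in FAP-like cells, 212, 238, 209 and 196 CPM in endothelial-like cells and 135, 165, 134 and 126 CPM in vessel wall-like cells. In myogenic-like cells it was at 1.95, 1.66, 1.84 and 2.99 CPM, below its 8.68 to 17.3 CPM in macrophage-like cells.

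Among the connective tissue clusters, shown in the plot of levels by connective tissue cluster, the members marked 2 groups of cells. Tenocyte-like cluster 12 (1265 cells) had *Eya4* at 183, 173, 159 and 156 CPM and *Eya1* at 58.7, 44.2, 48.9 and 33.6 CPM, which were 5.97 to 8.33 and 4.19 to 25.2 times the levels in FAP-like cluster 0. Tenocyte-like cluster 9 (3657 cells, led by *Kera*) had 48.8 to 81.0 CPM of *Eya4* and 8.93 to 17.9 CPM of *Eya1*. The progenitor-like levels of *Eya4* and *Eya1* were still 1.63 to 1.81 and 1.43 to 2.12 times those of cluster 12. FAP-like cluster 10 (1601 cells) had the most *Meox2*, at 427, 410.1, 405 and 378 CPM. It was followed by tenocyte-like cluster 12 at 341, 369, 325 and 347 CPM, a range that lay apart from it. FAP-like cluster 2, the cluster of the adventitial genes *Pi16* and *Ly6a*, had the least *Meox2* of the FAP-like clusters, at 109.9 to 113 CPM.

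**Figure D2:**
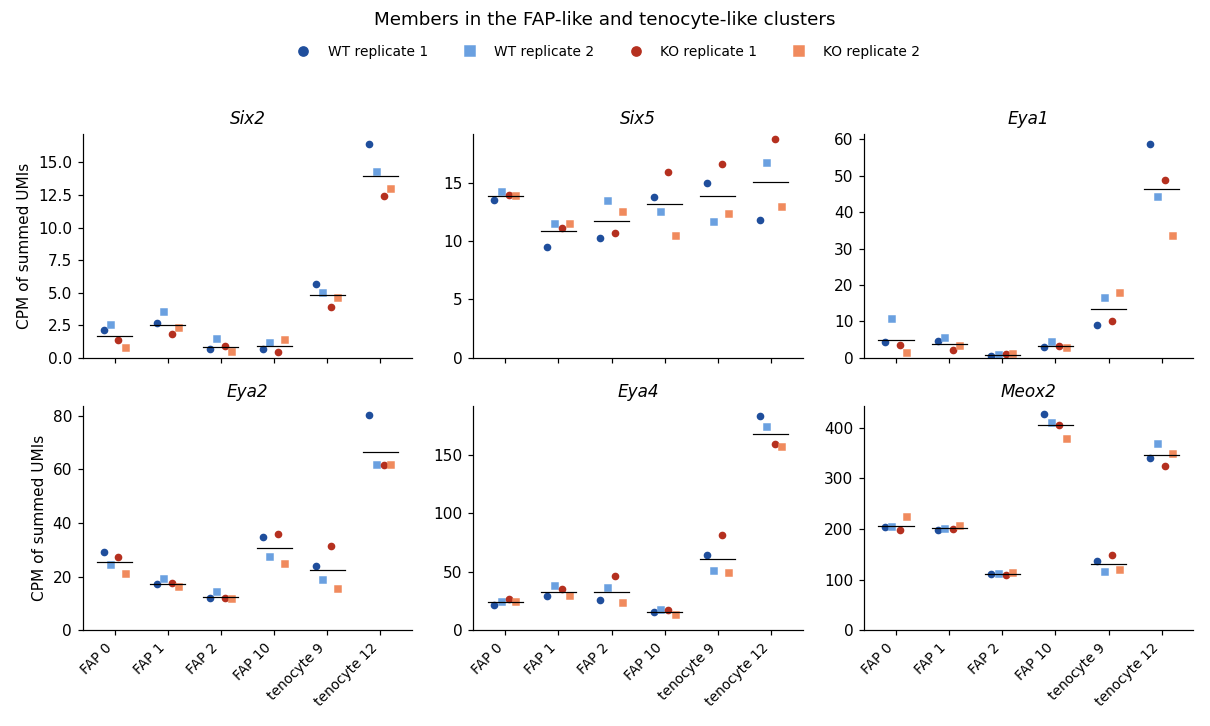
Levels of 6 of the genes (CPM of summed UMIs, linear axes from 0) in 4 FAP-like and 2 tenocyte-like clusters. Points are the 4 libraries and bars their mean; tenocyte-like cluster 12 holds the highest *Six2*, *Eya1*, *Eya2* and *Eya4* of these clusters in each library, and *Meox2* is highest in FAP-like cluster 10.

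Shares of cells with a UMI were taken after each cell was thinned to 2000 UMIs, so that depth could not set them. *Eya4* was detected in 36.9%, 39.5%, 35.0% and 34.9% of myogenic-like cells, against 1.98% to 5.90% of macrophage-like cells. That class was set beside it as one that should lack the members, which did not hold for *Eya3*. It was not the lowest class for each of them. *Eya4* was at 18.1 to 30.5 CPM there against 2.18 to 12.5 CPM in mast-like cells, and *Lbx1* at 1.95 to 5.32 CPM against 0. Whether these macrophage-like UMIs were free RNA was not tested. *Eya3* itself had its highest level in macrophage-like cells, with a UMI in 5.28% to 7.14% of them, about its 5.28% to 7.25% of myogenic-like cells. *Eya1* was detected in 10.7% to 12.1% of myogenic-like cells and *Lbx1* in 6.01% to 7.49%, against 0% to 1.19% and 0% to 1.86% of macrophage-like cells. *Meox2* was detected in 29.4% to 31.7% of FAP-like cells, but in 0.338% to 0.493% of myogenic-like cells against 0.392% to 2.78% of macrophage-like cells. The myogenic-like *Meox2* range did not exceed that of macrophage-like cells. *Six2* and *Eya1* in FAP-like cells, at 0.228% to 0.426% and 0.410% to 0.910%, were also close to their shares of 0% to 0.311% and 0% to 1.19% in macrophage-like cells. Median depths were 8969 to 11401 UMIs in myogenic-like, 9153 to 12155 in FAP-like and 10281 to 11856 in macrophage-like cells. Without thinning, the *Eya4* share of myogenic-like cells was 81.3%, 84.5%, 76.1% and 78.6%, against 14.3% to 19.5% of macrophage-like cells. Unthinned *Six2* and *Eya1* shares of FAP-like cells were 1.07% to 2.41% and 1.45% to 2.64%, against 0.388% to 1.06% and 0.619% to 2.38% of macrophage-like cells.

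Because Six-family proteins act with Eya proteins, both transcripts were counted in the same myogenic-like cells. Of the 12 pairs of a Six-family with an Eya gene, 1 exceeded the product of its single shares in 4 of 4 libraries. How many of 12 unlinked pairs would do so was not worked out, so the count does not show a link between 2 genes. The pair was *Six4* with *Eya2*, with both UMIs in 0.289% ± 0.0629 of cells (SD, n = 4 libraries, 19 cells in all) against a product of 0.160%. Both genes were higher in myoblast-like than in progenitor-like cells in 4 of 4 libraries, and within stages the pair exceeded its product in 3 (progenitor-like), 2 (cycling-like) and 3 (myoblast-like) of the 4 libraries. *Six4* with *Eya4* was the most frequent pair, at 1.76% ± 0.460 against a product of 1.83%, which differed by less than the spread between libraries. At this depth few cells held both transcripts of a pair, and without thinning 7 pairs exceeded the product in each library, where depth differs between cells.

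Likeness was measured as Pearson's r of log2(CPM + 1) over 44 profiles, 11 classes or stages in 4 libraries, among 14885 genes. The profiles share libraries and cells, so r is a description. The profile of *Eya1* was most like those of *Mstn* (r = 0.92), which codes for the muscle growth inhibitor myostatin, *Mybpc1* (0.89) and *Cited1* (0.88). That of *Lbx1* was most like *Ank1* (0.95) and *Prox1* (0.95). *Meox2* was most like *Ebf1* (0.97), *Cxcl12* (0.96) and *Hecw2* (0.95), and *Six4* like *Dync1i1* (0.94) and *Fbxo17* (0.90). *Eya4* was most like *Ncoa1* (0.92), *Simc1* (0.91) and *Bex1* (0.90), *Eya2* like *Ptprd* (0.92), *Mdk* (0.91) and *Vash2* (0.90), and *Six2* like *Arfgef3* (0.93), *Ptprq* (0.91) and *Tacr1* (0.88). *Six5* was most like *Golim4* (0.93), *Gpx7* (0.92) and *Tmem263* (0.91). *Eya3* had no close match, with *Dhx38* (0.77), *Plekhg5* (0.76) and *Maf1* (0.76) nearest. Between members, r was 0.84 for *Six2* with *Eya1*, 0.81 for *Eya4* with *Lbx1* and -0.71 for *Meox2* with *Lbx1*.

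**Figure D3:**
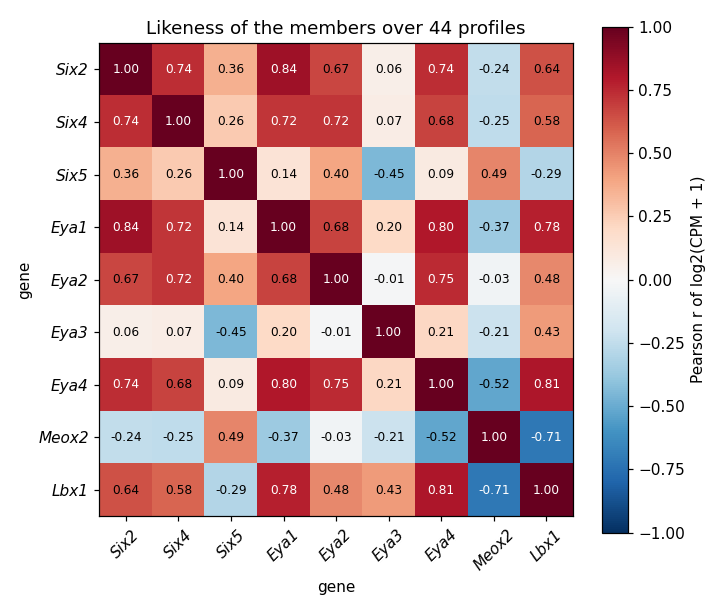
Pearson r of log2(CPM + 1) between each pair of the 9 genes over 44 profiles (11 classes or stages in 4 libraries), from blue (-1) to red (1). *Six2*, *Six4*, *Eya1*, *Eya2*, *Eya4* and *Lbx1* are positive with each other, from 0.48 to 0.84, and *Meox2* is negative with each of them.

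KO and WT were compared with edgeR's quasi-likelihood test on UMIs summed per library, with p-values adjusted by Benjamini-Hochberg over the whole table and called under 0.05. In myogenic-like cells 0 of the 9 members passed, as did 0% of the 14710 genes tested, of which 299 higher and 248 lower in KO had an unadjusted p under 0.05. No member had an unadjusted p under 0.05, and DESeq2 called 0 genes. The levels of *Eya4* in myogenic-like cells were 269, 281, 253 and 239.6 CPM, so that both KO libraries lay under both WT libraries. The log2 fold change (KO over WT) was -0.12 ± 0.06 (SE, edgeR adjusted p = 0.967), and -0.093 ± 0.06 without KO replicate 2. It was the 1 member of 9 whose libraries lay apart, against 33.6% of all genes tested. *Lbx1* was at 32.97, 34.1, 33.5 and 33.9 CPM, with overlapping libraries and a log2 fold change of 0.05 ± 0.08. *Six4* (0.12 ± 0.12), *Six2* (0.21 ± 0.17), *Six5* (0.16 ± 0.18), *Eya1* (-0.10 ± 0.09), *Eya2* (0.02 ± 0.13), *Eya3* (-0.04 ± 0.10) and *Meox2* (0.46 ± 0.32) had overlapping libraries. The median log2 fold change was 0.05 over the members and 0.0017 over all genes.

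In the stages no member passed either, as did 0% of 12804 genes in progenitor-like, 0% of 12394 in cycling-like and 0% of 10801 in myoblast-like cells, and DESeq2 called 0 genes in each. All 9 members were tested in the progenitor-like (log2 fold changes of -0.15 to 0.27) and cycling-like stages (-0.14 to 0.40) and 7 in the myoblast-like stage (-0.42 to 0.27). *Six4* in myoblast-like cells, at 49.7 and 52.0 CPM in WT and 61.3 and 59.2 CPM in KO, had the only unadjusted p under 0.05 among these. Its log2 fold change was 0.27 ± 0.12 (edgeR adjusted p = 0.946). Leaving out KO replicate 2 gave 0.28 ± 0.15.

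In FAP-like cells 0 of 9 members passed, as did 0% of the 18118 genes tested, of which 259 higher and 269 lower in KO had an unadjusted p under 0.05. DESeq2 called 6 genes there and 0 members. *Eya1* was counted at 3.47, 6.71, 2.63 and 1.86 CPM and *Six2* at 1.79, 2.36, 1.24 and 1.12 CPM, with both KO libraries under both WT libraries. The log2 fold change of *Eya1* was -1.14 ± 0.33 (edgeR adjusted p = 0.996, unadjusted p = 0.0132 in the fit across all genes). It was -0.60 ± 0.27 without WT replicate 2 and -0.92 ± 0.35 without KO replicate 2. Without WT replicate 1, which leaves WT replicate 2 as the only WT library, it was -1.53 ± 0.24. That of *Six2* was -0.77 ± 0.22 (edgeR adjusted p = 0.996) and -0.70 ± 0.28 without KO replicate 2. Together with *Eya3* these were the 3 members of 9 with libraries apart, all lower in KO, against 31.2% of all genes tested in either direction. Of those 5651 genes 4049 were lower and 1602 higher in KO, so lower was also the usual direction. The other log2 fold changes lay between -0.14 for *Eya3* and 0.51 for *Lbx1*, and the median was 0.03 over members and -0.00041 over all genes.

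Within the FAP-like cells, *Eya1* was at 4.32, 10.6, 3.55 and 1.33 CPM in cluster 0 but at 0.566, 0.816, 1.04 and 0.951 CPM in cluster 2, where KO exceeded WT in both libraries. It was at 4.55, 5.54, 2.02 and 3.28 CPM in cluster 1, with KO under WT, and at 3.03, 4.25, 3.31 and 2.66 CPM in cluster 10, where the libraries overlapped. KO also lay under WT for *Eya1* in some other classes. It was at 2.08, 2.61, 1.57 and 0.559 CPM in macrophage-like and 1.84, 1.89, 1.00 and 0.458 CPM in glial-like cells, on 2 to 12 UMIs per library. In chondrocyte-like cells it was at 6.78, 5.85, 0 and 5.34 CPM. The libraries overlapped in vessel wall-like, endothelial-like and mast-like cells, where the KO mean was the higher. The WT and KO means there were 1.58 and 2.57, 5.98 and 7.62, and 0.725 and 1.63 CPM. Since *Six2* and *Eya1* were highest in muscle and tendon cells, the markers of those cells were summed in FAP-like cells. The 7 tenocyte markers summed to 228, 233, 158 and 247 CPM, with 0 of 7 apart between the genotypes. *Scx*, a leading gene of tenocyte-like cluster 12, was among them at 3.47, 7.71, 2.11 and 5.37 CPM, with overlapping libraries. The 13 myogenic markers summed to 92.1, 67.8, 93.5 and 105 CPM, with 8 of 13 higher in both KO than in both WT libraries. Their part in the result was not tested. An interaction term, fitted with libraries as blocks, compared the KO effect in myogenic-like cells with that in FAP-like cells. It was called for 0 of 9 members and 0% of 17896 genes. For *Six2* the effect was 0.97 ± 0.23 (log2, edgeR adjusted p = 1) and for *Eya1* 1.01 ± 0.25 (edgeR adjusted p = 1) higher in myogenic-like cells, and 1.07 ± 0.29 and 0.87 ± 0.29 without KO replicate 2. For *Eya1* the call depended on the settings: the term passed with no filter on low counts (edgeR adjusted p = 0.00088) and with the replicate number as a block (0.00051).

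**Figure D4:**
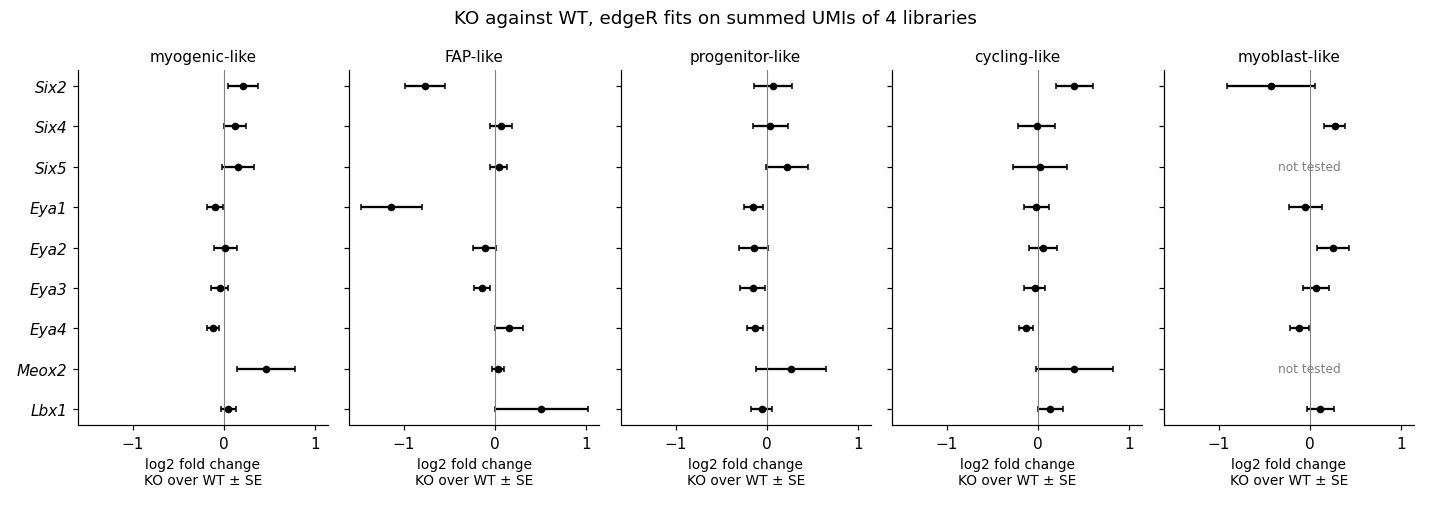
Log2 fold changes (KO over WT) of the 9 genes in myogenic-like and FAP-like cells and in 3 myogenic stages, from edgeR fits on 4 libraries. Points are estimates and bars are 1 SE; *Six2* and *Eya1* in FAP-like cells lie furthest below 0, at -0.77 and -1.14, and none of the values passed the adjusted threshold.

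In the remaining classes 0 members passed as well. The share of genes called was 0% in tenocyte-like, chondrocyte-like, glial-like and macrophage-like cells, 0.151% in vessel wall-like, 0.017% in endothelial-like and 0.0982% in mast-like cells. DESeq2 called 0 members in these classes, and 4 of the member values had an unadjusted p under 0.05 in edgeR. The sign of the *Eya4* value was not the same in each class, a difference that was not tested. In macrophage-like cells *Eya4* was counted at 18.1, 19.5, 28.3 and 30.5 CPM, a log2 fold change of 0.67 ± 0.18 (edgeR adjusted p = 0.997), and 0.60 ± 0.25 without KO replicate 2. *Six2* (1, 1, 4 and 5 UMIs) and *Lbx1* (8, 6, 9 and 19 UMIs) also had both KO libraries above both WT libraries there. *Eya1* (6, 8, 5 and 2 UMIs) had both below, and the other members overlapped. Of the 11529 genes tested in this class 3689 had libraries apart, as did 1 of the 4 members tested, *Eya4*. The part of transcripts from other cells in these member values was not tested. In chondrocyte-like cells *Eya4* was at 32.6, 37.0, 8.69 and 23.5 CPM (-0.80 ± 0.26, edgeR adjusted p = 1.00), and KO replicate 1 held 99 of these cells and 8 UMIs. The 11 chondrocyte markers summed to 27720, 21520, 15780 and 21030 CPM there, with 7 of 11 lower in both KO libraries, and their part in the *Eya4* value was not tested. Without KO replicate 2, which leaves KO replicate 1 as the only KO library, the *Eya4* value there was -2.02 ± 0.38. In endothelial-like cells *Eya4* was at 7.49, 4.78, 7.65 and 16.5 CPM (0.95 ± 0.41, edgeR adjusted p = 1.00). Without KO replicate 1 this became 1.42 ± 0.36, and without KO replicate 2 it was 0.32 ± 0.44. The first of these fits leaves KO replicate 2, the library apart in sex-linked transcripts, as the only KO library. In the same endothelial-like cells the 13 myogenic markers summed to 38.0, 30.8, 94.5 and 126.7 CPM (8 of 13 higher in both KO libraries) and 10 of 13 FAP markers were higher, while 6 of 11 endothelial markers were lower. Their part in the *Eya4* value was not tested. *Eya3* in vessel wall-like cells was at 21.6, 24.9, 15.6 and 19.2 CPM (-0.40 ± 0.18, edgeR adjusted p = 0.863), and the value without KO replicate 2 was -0.56 ± 0.23.

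The genes that work with these regulators were taken from a list of 25: cofactors of Six-family and Eya proteins, other upstream factors, migration genes, *Pax7* with the myogenic regulatory factors, and factors beside them. In myogenic-like cells 23 were tested and 0 passed in either direction, with a median log2 fold change of 0.04, and 14 of the 23 were above 0. The 5 with the smallest unadjusted p were the corepressors *Dach1* (-0.19 ± 0.09) and *Dach2* (-0.38 ± 0.28), the regulatory factor *Myf6* (0.39 ± 0.21), the repressor *Msc* (0.11 ± 0.06) and the muscle enhancer factor *Mef2c* (0.33 ± 0.20). Each had an edgeR adjusted p of 0.967.

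Shares of cells with a UMI were compared between genotypes by permuting the 4 libraries over their 6 arrangements (exact, two-sided), whose smallest possible p is 0.3333, so that none could pass. Libraries lay apart for 2 of 9 members in myogenic-like cells (*Eya4* and *Meox2*), against 33.2% of all genes tested, and for 2 of 9 in FAP-like cells (*Six4* and *Eya3*), against 31.2%. Neither count exceeded that of genes in general. The difference (KO minus WT) of the *Eya4* share in myogenic-like cells was -3.21 percentage points (exact permutation p = 0.3333). For *Eya3* in FAP-like cells, at 4.79%, 4.61%, 4.28% and 3.44%, it was -0.838 points (exact permutation p = 0.3333). For the *Six2* and *Eya1* shares of FAP-like cells it was -0.0870 and -0.237 points, with overlapping libraries (exact permutation p = 0.667 for both). The thinned shares of *Six2* and *Eya1* thus overlapped where their summed levels lay apart.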

How the data were processed

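Single-cell libraries of E18.5 leg muscle (2 WT, 2 KO; 109653824 to 126257094 UMIs each) were aligned to mm10 with Cell Ranger 7.2.0 by the authors, who deposited UMI counts per gene and cell without normalization. The study's limits were applied to cells (1000 to 6000 genes, 1000 to 25000 UMIs, mitochondrial share under 8%), and no doublet caller was applied. Clusters (scanpy 1.11.5, Leiden resolution 0.3, 3000 variable genes without the members, 30 components, 20 neighbours) were rebuilt and named from markers, so classes may differ from those of the study.

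For each class, the UMIs of a library were added up and fitted with edgeR 4.0.16 (quasi-likelihood, TMM, filterByExpr) in R 4.3.3, for classes with at least 50 cells in each library. DESeq2 1.42.0, RLE factors, no filter, Scrublet, a looser cell filter, resolution 1 and leaving out each library were alternatives. The scripts were tested on simulated counts. Members, lists and naming rules were chosen with earlier results of these data known. Genes were named as follows: all members, the 3 genes most like each (at least 5 CPM in some profile), and the 5 listed pathway genes with the smallest unadjusted p. Some genes that this rule gives are not reported here. Whether replicates came from separate fetuses or pools is not stated, so p-values measure the spread between these libraries. Intervals were not computed from cells.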

Additional observations from a re-analysis of the deposited data

Results flagged for a closer look

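*Meox2* was counted in the cluster without a name, whose cells enter none of the comparisons, at 100.3 CPM on average in the KO libraries (100.5 and 100.2 CPM) and at 83.0 and 85.5 CPM in WT. This cluster held 50, 37, 117 and 227 cells, carried both myogenic and FAP markers, and had median depths of 17824 to 20865 UMIs in 3 libraries and 4518 in KO replicate 2. In the same cells *Six2*, *Eya2*, *Eya3* and *Eya4* had both KO libraries below both WT libraries, and the other members overlapped. *Eya4* was at 164, 160, 126 and 131 CPM there. The share of all genes with libraries apart was not worked out for this cluster. These differences were not tested, nor was the part of depth and of mixed markers in them.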

How the results depend on the processing

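No member passed with RLE factors, DESeq2 or removal of Scrublet doublets, wherever these were run. A fit that leaves out a library has a single library of 1 genotype, so calls in such fits rest on that library. Members called in FAP-like cells numbered 0 to 1 on leaving out a library (*Eya1*, without WT replicate 1). In the other classes they numbered 1 with no filter on low counts (*Eya4*, chondrocyte-like) and 0 to 1 on leaving out a library. For the interaction they numbered 1 with no filter and 0 to 1 on leaving out a library, each time *Eya1*. The main fits did not pair the libraries by replicate number, as 2 pairs are too few. The deviations of same-numbered libraries correlated at 0.26 (myogenic-like) and 0.28 (FAP-like) across genes, and what these correlations come from was not tested. With the replicate block, 1 member (*Eya1*) was called in the interaction and 0 in the class and stage fits, while over all genes the calls went from 0 to 9 in myogenic-like, 0 to 20 in progenitor-like, 0 to 5 in cycling-like, 0 to 4 in tenocyte-like, 0 to 8 in chondrocyte-like, 19 to 158 in vessel wall-like, 0 to 100 in glial-like and 0 to 11 in macrophage-like cells and 0 to 68 in the interaction, and from 7 to 0 in mast-like cells. The highest class stayed so for 7 to 9 of the 9 members under the alternatives. Of the shares of the 9 members in myogenic-like and in FAP-like cells, 7 had libraries apart at 1000 UMIs and 8 without thinning. On leaving out a library, where 1 library stands alone, 9 to 13 did. The share over all genes was not worked out at these settings, so these counts cannot be set against genes in general. Pairs above their product numbered 7 without thinning. The cause of these shifts was not tested. With 2 libraries a genotype and few UMIs of *Six2*, *Six5* and, outside muscle, *Lbx1*, small differences could not be detected.

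*Eya2* in myogenic-like cells was at -0.047 (log2) under the looser cell filter. Of 380 log2 fold changes on leaving out a library 69 took the other sign. Their lowest and highest values follow. In myogenic-like cells *Six4* -0.042 to 0.27, *Six5* -0.0094 to 0.31, *Eya2* -0.13 to 0.19, *Eya3* -0.15 to 0.066. In FAP-like cells *Six4* -0.017 to 0.14, *Six5* -0.017 to 0.092, *Eya2* -0.28 to 0.028, *Eya4* -0.068 to 0.34, *Meox2* -0.033 to 0.0903, *Lbx1* -0.25 to 1.01. In progenitor-like cells *Six2* -0.16 to 0.33, *Six4* -0.24 to 0.28, *Eya2* -0.28 to 0.014, *Lbx1* -0.15 to 0.032. In cycling-like cells *Six4* -0.37 to 0.26, *Six5* -0.37 to 0.34, *Eya1* -0.20 to 0.14, *Eya3* -0.091 to 0.018, *Lbx1* -0.032 to 0.28. In myoblast-like cells *Eya1* -0.31 to 0.17, *Eya3* -0.022 to 0.18, *Eya4* -0.25 to 0.048. In tenocyte-like cells *Six2* -0.41 to 0.035, *Six4* -0.16 to 0.0059, *Six5* -0.0803 to 0.44, *Eya1* -0.18 to 0.26, *Eya2* -0.53 to 0.40, *Eya3* -0.13 to 0.10, *Eya4* -0.37 to 0.41, *Meox2* -0.19 to 0.32. In chondrocyte-like cells *Meox2* -0.059 to 0.48. In vessel wall-like cells *Six5* -0.23 to 0.28, *Eya2* -0.33 to 0.17, *Eya4* -0.094 to 0.26. In endothelial-like cells *Six5* -0.79 to 0.17, *Eya1* -0.041 to 0.87, *Eya3* -0.25 to 0.015. In glial-like cells *Eya2* -0.0015 to 0.72, *Eya3* -0.068 to 0.20, *Meox2* -0.021 to 0.16. In macrophage-like cells *Eya2* -2.58 to 0.79, *Eya3* -0.21 to 0.15, *Meox2* -0.25 to 0.69. In mast-like cells *Eya3* -0.20 to 1.00. In the difference of the KO effect (myogenic-like minus FAP-like) *Six4* -0.029 to 0.12, *Six5* -0.061 to 0.26, *Eya2* -0.13 to 0.40, *Eya3* -0.042 to 0.23, *Lbx1* -0.95 to 0.27.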
